A study of Mus musculus with 6 samples.

Results

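The genes described here build or control the vesicles that carry material across endothelial cells: the caveolins Cav1 and Cav2, the cavins Ptrf (now Cavin1), Sdpr (Cavin2) and Prkcdbp (Cavin3), the membrane-shaping proteins Ehd2, Ehd4 and Pacsin2, the diaphragm protein Plvap, and Mfsd2a, the lipid carrier that holds caveolar transport down at the blood-brain barrier. They were chosen by name, and all 10 of 10 were found among the 23329 gene symbols of the count files and passed the filter on low counts that left 14838 genes. Their transcripts were counted by RNA sequencing of endothelial cells taken with magnetic bead sorting (MACS) from the brains of C57BL/6 mice 8 weeks old. The 3 WT libraries came from wild-type littermates, and the other 3 libraries carry the genotype label GLUT1EC-/-, an endothelial deletion of Slc2a1, the gene of the glucose carrier GLUT1. The cells were not cultured, and no treatment is given for either group. The labels do not name the Cre driver, the deleted exons or the time of deletion. Each library has its own animal number, and the comparison asked how the endothelial transcriptome differs between these genotypes.

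Caveolae are flask-shaped pits of the plasma membrane. Caveolins, which are hairpin membrane proteins, and cavins, which coat them from the cytosol, build the bulb, and EHD ATPases and the F-BAR protein pacsin 2 shape and hold its neck. In most vessels caveolae carry plasma proteins through the endothelium, whereas capillaries of the healthy brain hold few of them. Mfsd2a moves lysophosphatidylcholine with omega-3 fatty acids into the inner membrane leaflet, and mice without it have more vesicular transport across the brain endothelium. Plvap forms the diaphragms of caveolae and fenestrae and is normally scarce in barrier vessels and abundant in fenestrated ones such as those of the choroid plexus.

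The total count was 31874662 to 39424384 per library, and the 10 genes together took 0.272% to 0.327% of it in 5 libraries and 0.185% in GLUT1EC-/- 2. GLUT1EC-/- 2 stood apart in other ways too, with a scaling factor of 0.884 by TMM (trimmed mean of M-values) against 1.01 to 1.05 in the others, so its values are named throughout. Slc2a1 itself was at 3984, 4479 and 4172 CPM (counts scaled to a common library size, with TMM factors) in WT and at 3735, 5414 and 3893 CPM in libraries labelled GLUT1EC-/- (adjusted p = 0.921 by edgeR). Reads of the deleted gene thus do not tell the groups apart, and a direction below holds for libraries by their label only. The 19 endothelial identity genes, led by Ly6c1 and Ptprb, summed to 21323 to 22936 CPM in WT and 22582 to 26824 CPM in libraries labelled GLUT1EC-/-, so the defining genes of the sorted cell type were abundant in all 6 libraries.

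None of the 10 genes passed the test between the groups (quasi-likelihood test of edgeR, p adjusted by Benjamini and Hochberg over all 14838 genes, threshold 0.05), against 194 genes, or 1.31%, of all those tested (0.863% higher and 0.445% lower). At an unadjusted p under 0.05 the number was 3 of 10 (Cav1, Cav2 and Ehd4), against 14.5% of all genes. With limma-voom 0 of 10 passed, and with DESeq2 1 of 10, Ehd4. The libraries of the groups did not overlap for 3 of the 10, Cav1 and Sdpr, lower in every library labelled GLUT1EC-/-, and Ehd4, higher in every such library, against 22.9% of all genes. By fitted value 5 of the 10 were higher and 5 lower, with a median log2 fold change of -0.0032 beside 0.01 over all genes tested.

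**Figure D1:**
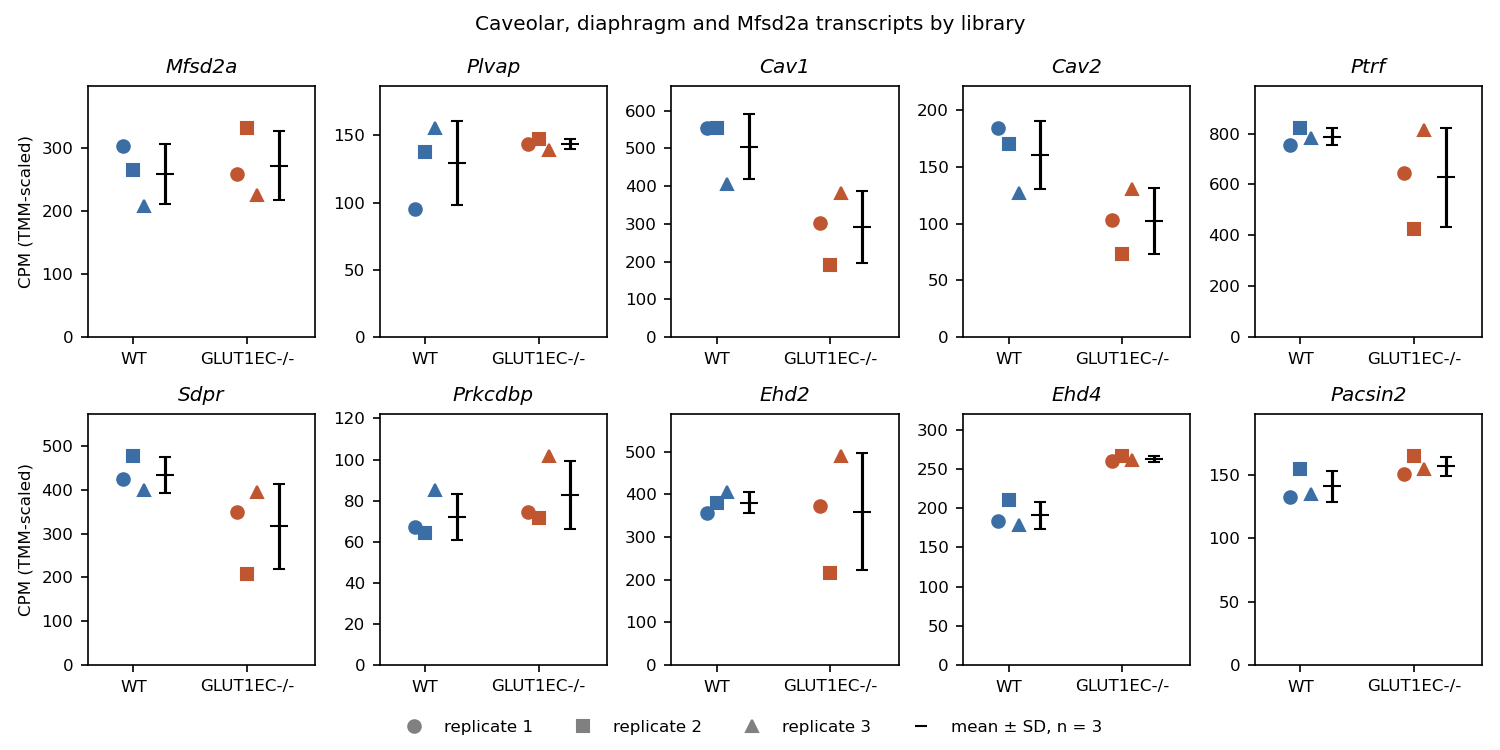
TMM-scaled CPM (vertical axes, from 0) of the 10 genes in each library, WT in blue and GLUT1EC-/- in red, with symbols for replicates and the mean ± SD over 3 libraries in black. Cav1 lies at 406 CPM or more in WT and 383 CPM or less in GLUT1EC-/-, Ehd4 at 211 CPM or less in WT and 260 CPM or more in GLUT1EC-/-, and GLUT1EC-/- 2 is the lowest library for Cav1, Cav2, Ptrf, Sdpr and Ehd2.

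Mfsd2a, the lysolipid carrier that restrains transcytosis, was read at 304, 265 and 209 CPM in WT 1 to 3 and at 259, 333 and 227 CPM in GLUT1EC-/- 1 to 3. The groups overlapped, with the highest library (GLUT1EC-/- 2) and the second lowest (GLUT1EC-/- 3) both labelled GLUT1EC-/-. The means were 259 ± 48 and 273 ± 54 CPM (SD, n = 3 each), a log2 fold change of 0.07 (standard error 0.20, adjusted p = 0.885 by edgeR). As a fold this was 1.05, and the 95% interval ran from 0.771 to 1.44, so a fall of more than 22.9% or a rise of more than 43.6% lies outside that interval. The sign was not stable: the log2 fold change was -0.10 without GLUT1EC-/- 2 and -0.06 without WT 3. Mfsd2a lies on the minus strand of chromosome 4 (GRCm38, 122946850 to 122961188), with 14 exons in its longest transcript.

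Plvap, the diaphragm protein, was read at 95, 138 and 155 CPM in WT 1 to 3 and at 144, 147 and 139 CPM in GLUT1EC-/- 1 to 3. The 3 libraries labelled GLUT1EC-/- lay inside the WT range, and WT 1 was the lowest of the 6. Plvap had a fitted log2 fold change of 0.15 (standard error 0.18, adjusted p = 0.744 by edgeR), with an interval of the fold from 0.827 to 1.48. It was -0.04 without WT 1 and 0.30 without WT 3. Choroid plexus markers, whose vessels are fenestrated, were present in all libraries: the summed CPM of 9 such genes was 5212 to 8509 in WT and 4070 to 7700 in GLUT1EC-/-, with the WT order the same as for Plvap and GLUT1EC-/- 2 lowest in the markers but highest of its group in Plvap. Their part in the Plvap level was not tested. Plvap lies on the minus strand of chromosome 8 (71497765 to 71511752).

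Cav1 encodes caveolin-1, without which endothelial caveolae do not form. Its level was 554, 555 and 406 CPM in WT 1 to 3 and 303, 191 and 383 CPM in GLUT1EC-/- 1 to 3. All libraries labelled GLUT1EC-/- were below all WT libraries, though WT 3 and GLUT1EC-/- 3 differed by little next to the spread within each group. Cav1 had a fitted log2 fold change of -0.79 (standard error 0.25, edgeR unadjusted p = 0.0143, adjusted p = 0.203), or 0.579-fold, and the 95% interval of the fold ran from 0.386 to 0.868. It was -0.57 without GLUT1EC-/- 2 (edgeR adjusted p = 0.0957) and -1.03 without GLUT1EC-/- 3 (edgeR adjusted p = 0.0804), and over all 16 alternatives it stayed negative, with adjusted p from 0.0551 (DESeq2) to 0.603 (edgeR, without WT 1). Within the animals numbered in the 200s the log2 ratio of mean CPM was -0.87, and within the 500s it was -0.50.

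Cav2 encodes caveolin-2, which joins caveolin-1 in hetero-oligomers and depends on it to reach the cell surface. Cav2 was read at 184, 170 and 127 CPM across WT 1 to 3, and at 104, 73 and 130 CPM in libraries labelled GLUT1EC-/-, so that GLUT1EC-/- 3 was above WT 3 and the groups overlapped. For Cav2 the log2 fold change was -0.65 (standard error 0.23, edgeR unadjusted p = 0.0226, adjusted p = 0.247), and -0.46 without GLUT1EC-/- 2 (edgeR adjusted p = 0.177). The ratio of Cav1 to Cav2 per length was 2.91, 3.15 and 3.11 in WT and 2.83, 2.54 and 2.84 in libraries labelled GLUT1EC-/-, a narrow range beside that of either gene. In this ratio each library labelled GLUT1EC-/- was below each WT library. Both lie on the plus strand of chromosome 6, Cav2 at 17281185 to 17289115 and Cav1 at 17306335 to 17341452, with 17219 bases between the end of Cav2 and the start of Cav1. Cav1 and Cav2 were both lowest in GLUT1EC-/- 2 and next lowest in GLUT1EC-/- 1, as were Ptrf and Sdpr, which lie on other chromosomes. The 250 bases before the starts of Cav2 and Cav1 are shown, from RefSeq on GRCm38.p6, because these genes are adjacent. They are given 5′ to 3′ on the strand of the gene, and capitals mark matches on either strand to GGGCGG (the GC box), CCAAT (the CCAAT box), CTTTGA (the core of TCF/LEF sites) and TATAAA (the TATA box).
Cav2, chr6:17280935-17281184: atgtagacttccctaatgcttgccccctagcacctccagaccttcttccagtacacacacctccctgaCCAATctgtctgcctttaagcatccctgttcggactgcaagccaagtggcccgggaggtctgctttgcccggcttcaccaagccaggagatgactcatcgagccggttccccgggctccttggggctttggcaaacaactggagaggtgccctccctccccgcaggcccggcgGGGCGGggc
Cav1, chr6:17306085-17306334: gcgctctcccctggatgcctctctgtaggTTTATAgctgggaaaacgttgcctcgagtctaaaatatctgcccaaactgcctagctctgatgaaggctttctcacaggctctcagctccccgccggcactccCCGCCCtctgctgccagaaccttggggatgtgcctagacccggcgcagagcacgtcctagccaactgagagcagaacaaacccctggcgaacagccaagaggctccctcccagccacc
The Cav2 window holds 1 GC box and 1 CCAAT box, and the Cav1 window 1 GC box and 1 TATA box. Among 32817 windows of this length before RefSeq starts, 32.7% hold the GC box, 33.8% the CCAAT box, 13.8% the TCF/LEF core and 12.4% the TATA box. The GC box is the only one of the 4 motifs found in both windows shown, and a match of letters is not a measured site. RefSeq holds another start of Cav1, whose window (chr6:17307390-17307639) has none of the 4 motifs.

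Ptrf encodes cavin-1, the coat protein that caveolae need beside caveolin-1. It was read at 756, 823 and 784 CPM across WT 1 to 3, and at 644, 426 and 815 CPM in libraries labelled GLUT1EC-/-. GLUT1EC-/- 3 lay inside the range of WT, GLUT1EC-/- 1 and 2 below it, and the SD was 34 CPM in WT against 195 CPM in GLUT1EC-/-. For Ptrf the log2 fold change was -0.33 (standard error 0.22, adjusted p = 0.55 by edgeR), and -0.12 without GLUT1EC-/- 2.

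Sdpr encodes cavin-2, which supports membrane curvature and is needed for caveolae in some vascular beds and not in others. It was read at 424, 478 and 399 CPM across WT 1 to 3, and at 348, 207 and 394 CPM in libraries labelled GLUT1EC-/-. The groups did not overlap, but the gap between WT 3 and GLUT1EC-/- 3 was small. For Sdpr the log2 fold change was -0.45 (standard error 0.23, adjusted p = 0.427 by edgeR), and it was -0.23 without GLUT1EC-/- 2 (edgeR adjusted p = 0.359). Sdpr lies on the plus strand of chromosome 1 (51289126 to 51302960). Its window is shown since it differs from those of the caveolins in base composition, with 40.4% G and C against 59.6% for Cav1 and 62.0% for Cav2.
Sdpr, chr1:51288876-51289125: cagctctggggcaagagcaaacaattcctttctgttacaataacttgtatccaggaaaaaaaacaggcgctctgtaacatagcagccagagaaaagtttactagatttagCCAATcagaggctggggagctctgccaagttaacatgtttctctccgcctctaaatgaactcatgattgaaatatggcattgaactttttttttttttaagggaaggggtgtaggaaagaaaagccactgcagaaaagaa
It holds 1 CCAAT box and none of the other 3 motifs.

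Prkcdbp encodes cavin-3, a cavin linked to the signalling and trafficking of caveolae more than to their number. It was the least abundant of the cavins, at 67, 64 and 85 CPM across WT 1 to 3 against 75, 72 and 102 CPM in libraries labelled GLUT1EC-/-. Its libraries overlapped between groups, and WT 3 and GLUT1EC-/- 3 were the highest of each. The log2 fold change was 0.20 (standard error 0.18, adjusted p = 0.655 by edgeR). Its exons share 374 bases with Gm45667, annotated on the other strand, so with no strand setting stated its count may hold reads of that gene.

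Ehd2 encodes the ATPase that sits at caveolar necks and keeps caveolae at the surface. It was read at 356, 379 and 405 CPM across WT 1 to 3, and at 371, 216 and 491 CPM in libraries labelled GLUT1EC-/-. The libraries labelled GLUT1EC-/- thus held the lowest and the highest value of the 6. The log2 fold change was -0.08 (standard error 0.27, adjusted p = 0.908 by edgeR), and 0.18 without GLUT1EC-/- 2 and -0.37 without GLUT1EC-/- 3.

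Ehd4, a paralogue of Ehd2 that works on early endosomes and can act at caveolar necks beside Ehd2, was the only one of the 10 for which every library labelled GLUT1EC-/- was above every WT library. It was read at 183, 211 and 178 CPM across WT 1 to 3, and at 260, 267 and 261 CPM in libraries labelled GLUT1EC-/-. The values of GLUT1EC-/- 1 to 3 lay close together (SD 3.6 CPM), and GLUT1EC-/- 2 did not stand apart. The log2 fold change was 0.46 (standard error 0.13, edgeR unadjusted p = 0.00608, adjusted p = 0.142), or 1.38-fold, and the 95% interval of the fold ran from 1.13 to 1.68. It stayed between 0.33 and 0.54 over the 16 alternatives, with an adjusted p of 0.0174 by DESeq2 and 0.0573 to 0.557 by edgeR and limma-voom. Within the 200s the log2 ratio was 0.40, and within the 500s 0.56. Ehd4 lies on the minus strand of chromosome 2 (120089175 to 120154606). Its window is shown as that of the gene with the smallest unadjusted p among the 10, before a RefSeq start that is not the GENCODE gene start.
Ehd4, chr2:120154576-120154825: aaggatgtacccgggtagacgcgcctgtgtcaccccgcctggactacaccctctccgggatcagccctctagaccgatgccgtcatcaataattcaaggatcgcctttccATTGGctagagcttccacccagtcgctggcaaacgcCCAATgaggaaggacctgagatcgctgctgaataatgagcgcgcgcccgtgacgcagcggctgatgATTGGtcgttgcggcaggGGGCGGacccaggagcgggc
It holds 3 CCAAT boxes and 1 GC box.

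Pacsin2 encodes the F-BAR protein that bends the membrane of caveolar necks. It was read at 133, 155 and 135 CPM across WT 1 to 3, and at 151, 165 and 155 CPM in libraries labelled GLUT1EC-/-, with WT 2 inside the range of GLUT1EC-/-. The log2 fold change was 0.15 (standard error 0.13, adjusted p = 0.614 by edgeR), and its interval, a fold of 0.912 to 1.36, was among the narrowest of the 10.

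**Figure D2:**
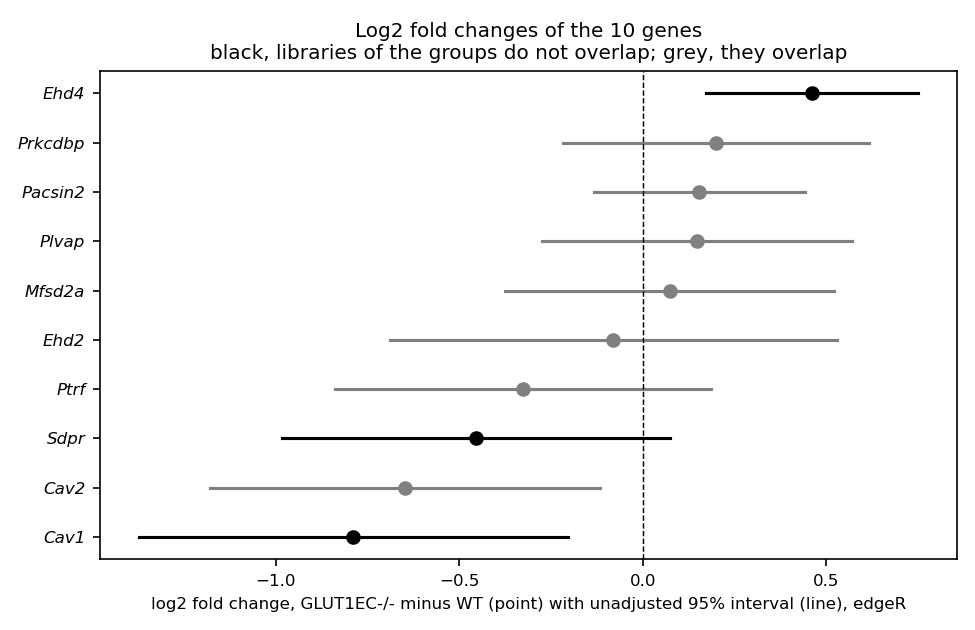
Fitted log2 fold change of each of the 10 genes (horizontal axis, GLUT1EC-/- minus WT) with its unadjusted 95% interval from edgeR, in black where the libraries of the groups did not overlap. The intervals of Cav1 (-1.37 to -0.20), Cav2 (-1.18 to -0.12) and Ehd4 (0.17 to 0.75) do not reach 0, and no gene passed after adjustment.

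**Figure D3:**
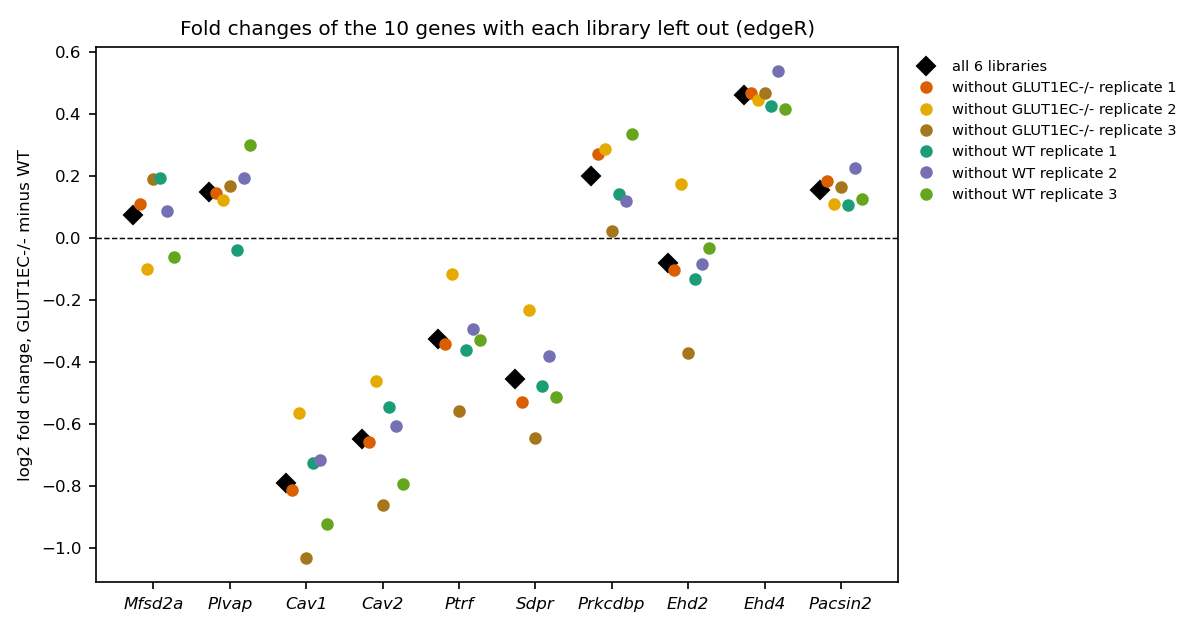
Fitted log2 fold change (vertical axis) of the 10 genes with all 6 libraries (black diamonds) and with each library left out in turn (coloured points). Leaving out GLUT1EC-/- 2 brings Cav1 to -0.57, Sdpr to -0.23 and Ptrf to -0.12 and turns Ehd2 to 0.18, while Ehd4 stays between 0.41 and 0.54.

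GLUT1EC-/- 2 was the lowest of the 6 libraries for 5 genes (Cav1, Cav2, Ptrf, Sdpr and Ehd2) and the highest for 3 others (Mfsd2a, Ehd4 and Pacsin2). The ratio of Cav1 to Ptrf per length was 0.764, 0.702 and 0.540 in WT and 0.490, 0.467 and 0.490 in libraries labelled GLUT1EC-/-. The ratio of Ehd2 to Ehd4 per length was 1.52, 1.41 and 1.78 in WT and 1.12, 0.633 and 1.47 in libraries labelled GLUT1EC-/-, so the ranges met only between WT 2 and GLUT1EC-/- 3. The ratio of Mfsd2a to Plvap per length ranged from 1.19 to 2.82 in WT and from 1.44 to 2.0 in libraries labelled GLUT1EC-/-, which lay within the WT range.

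The levels of the genes were set against each other as CPM per kilobase of merged exons. In WT the order was Ptrf (220 ± 9), Cav1 (147 ± 25), Sdpr (142 ± 13), Mfsd2a (115 ± 21), Ehd2 (74.2 ± 4.8), Plvap (65.1 ± 15.5), Cav2 (48.1 ± 9.0), Ehd4 (47.6 ± 4.4), Prkcdbp (43.3 ± 6.8) and Pacsin2 (28.7 ± 2.4). Among neighbours in that order, the libraries did not overlap between Ptrf and Cav1, between Mfsd2a and Ehd2 and between Prkcdbp and Pacsin2, and the other neighbours could not be ordered beyond their spread. In the libraries labelled GLUT1EC-/- Ptrf was again first (175 ± 54), followed by Mfsd2a (121 ± 24), Sdpr (104 ± 32), Cav1 (84.9 ± 28) and Plvap (72.2 ± 2.0). Ehd2 (70.2 ± 26.9), Ehd4 (65.6 ± 0.9), Prkcdbp (49.8 ± 10), Pacsin2 (32.0 ± 1.5) and Cav2 (30.7 ± 8.6) came after. Of the level summed over the 10 genes, Cav1 made up 15.7% ± 2.0 in WT and 10.3% ± 1.9 in libraries labelled GLUT1EC-/-, and Ehd4 5.11% ± 0.23 and 8.30% ± 1.49 (SD, n = 3 each). Slc2a1, on the same scale, was at 1201 ± 71 and 1240 ± 264, above each of the 10.

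**Figure D4:**
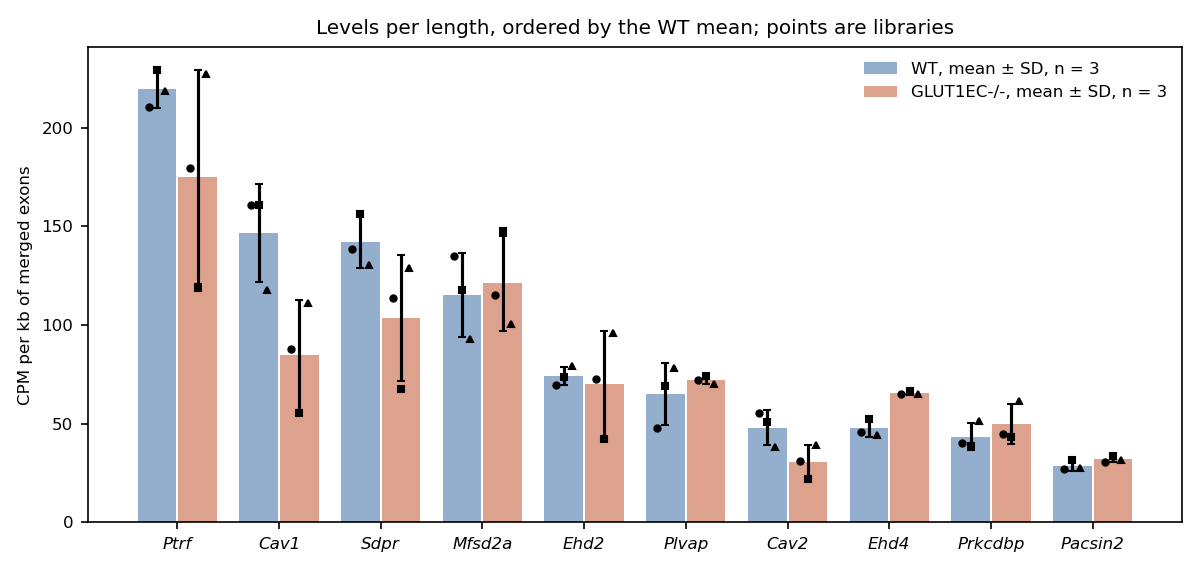
Level of each gene per length (vertical axis, CPM per kb of merged exons, from 0) as bars of the mean with SD over 3 libraries, WT in blue and GLUT1EC-/- in red, and points for the libraries. Ptrf is the highest in both groups (220 and 175), and Mfsd2a (115 and 121) lies above Plvap (65.1 and 72.2) in both.

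The genes whose pattern over the 6 libraries was nearest were taken by the root mean square difference of centred log2 CPM, among genes at 10 CPM or more that vary at least as much as the reference divided by 1.5. For Cav1 they were Zfp710, a zinc finger gene (0.088), Cav2 (0.103) and the tetraspanin gene Tspan13 (0.105), out of 1489 candidates. For Mfsd2a they were Foxn2 (0.046), Hinfp (0.047) and Braf (0.052) out of 6218 candidates, all with overlapping groups, and for Plvap Wipf3 (0.067), Skap2 (0.107) and Trp53i11 (0.107) out of 6182. All of these profiles come from the same 6 libraries, and the candidates are many, so the nearness only describes the profiles.

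The list of other caveolar genes and partners held 25 genes, 24 of them tested, and 0 rose or fell (edgeR adjusted p under 0.05), with 3 at an unadjusted p under 0.05, where all genes gave 14.5%. The median log2 fold change was 0.04. Acvrl1, the ALK1 receptor that also takes up LDL, was at 960 ± 20 and 1151 ± 220 CPM (log2 fold change 0.26, edgeR adjusted p = 0.508). Nos3, the endothelial nitric oxide synthase that caveolin-1 binds, was at 879 ± 58 and 934 ± 82 CPM (log2 fold change 0.09, edgeR adjusted p = 0.798). Cav3, the muscle caveolin, was not tested, with 0 counts in the 3 WT libraries and at most 0.239 CPM elsewhere.

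The 25 genes of clathrin and receptor-mediated transcytosis, the route that the transferrin receptor uses, had 0 calls and a median of 0.13, with 20 higher and 5 lower by value. The groups did not overlap for 9 of the 25, against 22.9% of all genes tested. By edgeR 7 had an unadjusted p under 0.05, against 14.5% of all genes. Their summed level was 5813 to 6681 CPM in WT and 7071 to 7334 CPM in libraries labelled GLUT1EC-/-. Tfrc, the transferrin receptor, was at 1020, 861 and 612 CPM across WT 1 to 3 against 881, 405 and 719 CPM in libraries labelled GLUT1EC-/- (edgeR adjusted p = 0.664). Cd93, a C-type lectin of endothelial cells, was at 531 ± 49 and 764 ± 59 CPM (log2 fold change 0.52, edgeR adjusted p = 0.129).

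Of 14 tested genes of fenestrated endothelium other than Plvap, 0 rose or fell, with a median of 0.02. The groups did not overlap for 8 of the 14, where the share over all genes tested was 22.9%. Flt1, the VEGF receptor 1, was at 4358 ± 292 and 3302 ± 270 CPM (log2 fold change -0.40, edgeR adjusted p = 0.237). Plat, the tissue plasminogen activator, was at 683 ± 71 and 1059 ± 388 CPM (log2 fold change 0.63, edgeR adjusted p = 0.281).

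Lysolipid and omega-3 lipid genes, the pathway of the Mfsd2a cargo, were the only pathway list with calls: of 22 tested, 1 rose and 1 fell, where 0.863% of all genes tested rose and 0.445% fell. Lpcat3, which joins polyunsaturated fatty acids to lysophospholipids, was at 54, 61 and 71 CPM across WT 1 to 3, and at 110, 133 and 105 CPM in libraries labelled GLUT1EC-/- (log2 fold change 0.90 with standard error 0.16, adjusted p = 0.0407 by edgeR). Acsl3, which activates long-chain fatty acids, fell from 90, 88 and 84 CPM to 51, 55 and 46 CPM (log2 fold change -0.78 with standard error 0.12, adjusted p = 0.0296 by edgeR). Both had groups that did not overlap, and GLUT1EC-/- 2 did not stand apart from its group in Acsl3. Both calls were lost with the animal number series as a term, without any 1 of the 3 WT libraries and without GLUT1EC-/- 1, and that of Lpcat3 also with the endothelial scaling. Over the 16 alternatives the adjusted p ran from 6.09e-05 (DESeq2) to 0.258 for Lpcat3 and from 6.05e-06 (DESeq2) to 0.199 for Acsl3, and neither changed sign. The list's median was 0.06, and Spns2, a carrier of sphingosine-1-phosphate, was at 190 ± 20 and 201 ± 65 CPM.

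Wnt and beta-catenin signalling raises Mfsd2a and represses Plvap in the brain endothelium. Its list had 0 calls among 22 tested and a median of -0.14. The list holds inhibitors of the pathway, such as Apcdd1, beside genes that carry it, so its median gives no direction for the pathway. By edgeR 9 of the 22 had an unadjusted p under 0.05, against 14.5% of all genes. The groups did not overlap for 10 of the 22, against 22.9% of all genes tested. Ctnnb1, beta-catenin itself, was at 1550, 1461 and 1265 CPM across WT 1 to 3, and at 983, 787 and 1031 CPM in libraries labelled GLUT1EC-/- (log2 fold change -0.61, edgeR adjusted p = 0.127). Apcdd1, a target and inhibitor of the pathway, was at 663 ± 34 and 1187 ± 430 CPM (log2 fold change 0.84, edgeR adjusted p = 0.155).

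**Figure D5:**
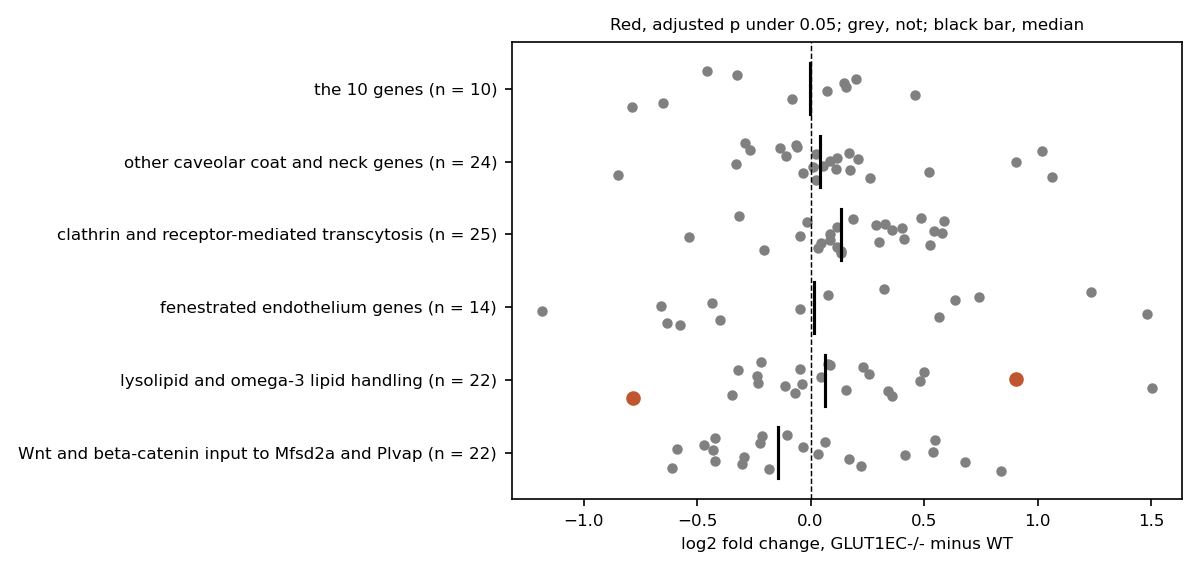
Log2 fold change of each tested gene (horizontal axis, GLUT1EC-/- minus WT) in the 10 genes and the 5 pathway lists, with calls in red and the median of each list as a black bar. Only Lpcat3 (0.90) and Acsl3 (-0.78) passed the test.

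Markers of vessel segments were summed by list, and the sums were carried by a few abundant genes. Calls in these lists stand beside 0.863% of all genes tested that rose and 0.445% that fell. Caveolae are more common in arterioles than in brain capillaries, and Mfsd2a is highest in capillaries. The summed level of 9 capillary genes was 12582 to 14584 CPM in WT and 7821 to 10772 CPM in libraries labelled GLUT1EC-/-, lowest in GLUT1EC-/- 2, and 1 of 9, the chemokine gene Cxcl12, fell (log2 fold change -1.32, edgeR adjusted p = 0.0206). Without the 2 most abundant genes of that list, Spock2 and Pltp, the sums were 5449 to 6415 and 4577 to 5295 CPM, and 4 of the 9 genes (Slc16a1, Slc7a5, Slc7a1 and Slc3a2) were higher by value in libraries labelled GLUT1EC-/-. The 9 venous genes summed to 4823 to 7052 and 8258 to 10667 CPM, highest in GLUT1EC-/- 2, with 1 of 9, Vwf, rising (log2 fold change 1.11, edgeR adjusted p = 0.0372). Without Vwf the venous sums overlapped, at 2833 to 3857 and 2704 to 5089 CPM. The 14 arterial genes summed to 1941 to 2511 and 2521 to 3188 CPM, with Mgp and Fbln5 rising and Gkn3 falling, and without the most abundant, Sema3g, they overlapped at 1532 to 2031 and 2010 to 2640 CPM. In bulk libraries fewer cells of a type and less RNA per cell cannot be told apart, and the part of these segments in the values of Cav1, Cav2 and Sdpr was not tested.

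Mural cells and fibroblasts also express caveolins and cavins. For the calls in these lists, too, the share over all genes tested was 0.863% rising and 0.445% falling. Smooth muscle genes (0 of 8 called, led by Acta2 and Myh11) summed to 1990 to 2769 CPM in WT and 1903 to 2592 CPM in libraries labelled GLUT1EC-/-, and pericyte genes (0 of 11, led by Notch3 and Rgs5) to 1167 to 1376 and 1312 to 1663 CPM, highest in GLUT1EC-/- 2. Fibroblast genes (1 of 10, Dcn, rising) summed to 139 to 166 and 197 to 438 CPM, with no overlap between the groups and the highest sum in GLUT1EC-/- 3, the library of its group with the most Cav1. Without Dcn the fibroblast sums overlapped, at 121 to 147 and 129.5 to 335 CPM, with GLUT1EC-/- 2 at 129.5 CPM and GLUT1EC-/- 1 at 185 CPM. By value 9 of the 10 fibroblast genes were higher and 1 lower. By edgeR 8 had an unadjusted p under 0.05, against 14.5% of all genes. The groups did not overlap for 6 of the 10, against 22.9% of all genes tested. Microglia genes (3 of 15 rising, C1qb, C1qc and Trem2) summed to 582 to 682 and 850 to 1878 CPM, and without those 3 genes the sums overlapped at 458 to 514 and 501 to 1298 CPM. Without the 3 most abundant, Csf1r, C1qc and C1qa, the sums did not overlap, at 293 to 353 and 383 to 992 CPM. By value 13 of the 15 microglia genes were higher and 2 lower. By edgeR 9 had an unadjusted p under 0.05, against 14.5% of all genes. Astrocyte genes (1 of 12 rising, Gfap) summed to 2656 to 2717 and 2078 to 3371 CPM. Without the most abundant, Glul, the astrocyte sums, which still hold Gfap, did not overlap, at 194 to 222 and 233 to 280 CPM. By value 6 of the 12 astrocyte genes were higher and 6 lower. The groups did not overlap for 6 of the 12, against 22.9% of all genes tested, and by edgeR 5 had an unadjusted p under 0.05, against 14.5%. Oligodendrocyte genes summed to 766 to 799 and 1248 to 3266 CPM. In libraries labelled GLUT1EC-/- most of the oligodendrocyte sum came from 1 gene, Mal, which was at 356, 405 and 398 CPM across WT 1 to 3, and at 1158, 2901 and 924 CPM in libraries labelled GLUT1EC-/- (edgeR adjusted p = 0.0505). Neuron genes (0 of 9) summed to at most 124 CPM in any library. Erythroid genes (0 of 5) summed to 781 to 1059 and 105 to 1100 CPM, lowest in GLUT1EC-/- 2. The calls named among these markers and those of the vessel segments were all lost without any 1 of the 3 WT libraries. No listed marker of these cell types was at 0 in any library, and their part in the values of the 10 genes was not tested.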

How the data were processed

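The authors used STAR for alignment on GRCm38 and featureCounts for counting, per the submitters' processing notes. Versions, gene annotation and strand setting are not given in the sources used here. Per the labels' protocols, the libraries were stranded TruSeq mRNA libraries read as single ends. Each deposited file gives the raw counts of 1 library by gene symbol, with totals of 31874662 to 39424384. All 6 libraries were fitted with genotype as the only term in edgeR 4.0.16 under R 4.3.3 (quasi-likelihood F test, TMM scaling, filterByExpr with a minimum count of 10, robust dispersion), with p-values adjusted over 14838 genes. The biological coefficient of variation was 23.2%. Standard errors were derived from the log2 fold change and its F value, and 95% intervals are unadjusted. CPM values were computed from the counts with TMM-scaled library sizes. Gene positions and merged exon lengths are from GENCODE M21 on GRCm38, and promoter windows from RefSeq, which held 8 of the 10 genes. The p-values rest on the spread among 3 animals in each group, with the estimate of that spread shared over genes. The 10 genes and all lists were chosen with earlier results of these data known. Named genes are the 10, Slc2a1, called members of each list or its 2 most abundant where none was called, and nearest genes by pattern. Alternatives were other scalings, DESeq2 1.42.0, limma-voom (limma 3.58.1), other filters, the animal number series as a term and each library left out. The fits were tested on simulated counts. PCR reads carry no molecular identifiers, so counts are not independent molecules.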

Additional observations from a re-analysis of the deposited data

How the results depend on the processing

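Of the 16 alternatives run on each of the 10 genes, Cav1, Cav2, Ptrf, Sdpr, Prkcdbp, Ehd4 and Pacsin2 kept their sign in all. With the endothelial identity list as the scale, the log2 fold change of Mfsd2a was -0.070, where the median of all genes was -0.11. Leaving out 1 library gave -0.10 (without GLUT1EC-/- 2) to 0.19 (without WT 1) for Mfsd2a, with -0.06 without WT 3, -0.039 (without WT 1) to 0.30 (without WT 3) for Plvap, and -0.37 (without GLUT1EC-/- 3) to 0.18 (without GLUT1EC-/- 2) for Ehd2. The cause was not tested. Ehd4 passed with DESeq2 (log2 fold change 0.46, adjusted p = 0.0174), so that 1 of the 10 was called there and 0 elsewhere, also at an adjusted p under 0.1. Over all genes the 194 calls became 93 with the endothelial scaling, 879 with DESeq2, 14 with the animal number series as a term, 429 at an adjusted p under 0.1, and 0 (without WT 1) to 862 (without GLUT1EC-/- 2) with 1 library left out. With lengths of the longest transcript in place of merged exons, the WT level per kb was 184 for Cav1, 58.7 for Cav2 and 38.2 for Pacsin2, since a shorter length raises the value. No paired analysis was possible because each animal number belongs to 1 library. The number series, each of which holds both genotypes, was fitted as a term instead, with the 14 calls above. With 3 libraries per group, intervals of the fold as wide as 0.386 to 0.868 (Cav1) show how little a missed threshold says about equality. The alternatives for called list genes and the sums without abundant or called genes were chosen after seeing the data.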
